A study of Mus musculus with 16 samples.

Results

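Prostate RNA from 10 mouse libraries was compared under 1 drug: 5 libraries from homozygous mutants (-/-) for 1 gene that had received finasteride, and 5 libraries from wild type (+/+) mice that had received it too. These are 10 of the 16 samples of the series. The other 6 come from mice given vehicle in place of the drug, 3 mutant and 3 wild type. Mice of every group were 12 months old and of a hybrid 129/SvImJ and C57Bl/6J strain. The labels name prostate as the tissue and give neither the lobes nor the dose or duration of treatment, and they do not say that each library came from a different animal, so p-values measure only the spread between these libraries, which may be technical. Every gene whose mean over the 16 samples was at least about 10 before the log was kept, which left 16506 of 29535 genes. Differences are mutant minus wild type, on the deposited log2 scale. They were tested with limma, and a gene passed at a Benjamini-Hochberg adjusted p under 0.05 over all 16506 genes.

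Finasteride blocks the 5-alpha-reductases, which turn testosterone into dihydrotestosterone, the androgen that drives the prostate's luminal cells. Those cells make the secretion of the gland, respond to androgen and need a large endoplasmic reticulum to fold what they export. When androgen is withdrawn, luminal cells lose much of their secretory programme, and cells near the urethra, the proximal luminal cells, survive best and express a different set of genes.

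The 16 libraries were spread along a first principal component that held 50.7% of the variance, with the 5 mutant finasteride libraries between -85.0 and -37.5, the 5 wild type finasteride libraries between 29.5 and 78.3, and all 6 vehicle libraries between -15.3 and 26.7. Library 2 of each finasteride group lay nearest to the vehicle libraries. Mutant finasteride library 2 stood apart from its group in genes of the seminal vesicle, epididymis and nerve, and wild type finasteride library 2 in genes of the epididymis and adipocytes, so the counts of these lists are also given with mutant library 2 as the only mutant library and without wild type library 2. In 5 libraries the values of genes with a mean log2 of at least 8 could also be written as a weighted mean of a pair of other libraries of the same group. The mean was taken before the log, with both weights above 0.2, and the residual SD was at most 0.0968 log2. Genes below that level were not fitted. These were mutant finasteride libraries 3 and 4, wild type finasteride 4, mutant vehicle 3 and wild type vehicle 3. Counts are therefore also given without these 5 libraries, called mixture-like here. The summed value of the tested genes was 24.11 ± 0.04 in mutant libraries and 24.49 ± 0.06 in wild type libraries (log2 of the sum, SD, n = 5 each), lower by 0.38 with p = 0.00794 in a two-sided exact permutation test, the smallest p that 5 against 5 can give. The 10 genes with the largest values held 15.5 ± 4.1% of the sum in mutant libraries and 30.2 ± 1.1% in wild type libraries (p = 0.00794, the same exact permutation test). Both permutation tests treat the libraries as independent, which the mixture-like ones may not be, and neither was run without them. The gene 9530053A07Rik held 18.0% to 21.8% of the sum in wild type libraries, and in 4 mutant libraries the top gene was Svs2, a seminal vesicle secretion gene, with 6.09% to 12.7%. These shares are not corrected for gene length, and the sequencing depth behind the values is not given in the table, so no counting error can be attached to them.

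Of the 16506 genes, 10499 (63.6%) passed, of which 5476 (33.2%) were higher and 5023 (30.4%) lower in the mutant. The large differences were mostly increases, with 2609 genes higher and 682 lower by more than 1 log2 unit. In 6608 genes (40.0%) the 5 values of 1 group all lay beyond the 5 of the other, 3523 higher and 3085 lower in the mutant. Without the 5 mixture-like libraries 6775 genes (41.0%) passed, of which 6767 had also passed in the same direction in all libraries. With mutant library 2 alone set against the 5 wild type libraries, where that lone library is assumed to vary like the others, 6198 (37.5%) passed and 5381 of them were among the 10499 with the same sign. Quantile normalization and median centring moved the median difference of all genes by -0.13 and -0.11 log2, and the calls higher in the mutant became 4303 of 10409 and 4656 of 11018. Differences near that size have no settled direction. The lists of genes described next are judged against the percentages above, and the bar plot of lists shows how far each stood from them. The level filter used all 16 libraries. A gene low in wild type could thus enter through its mutant values and hardly come out lower.

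**Figure D1:**
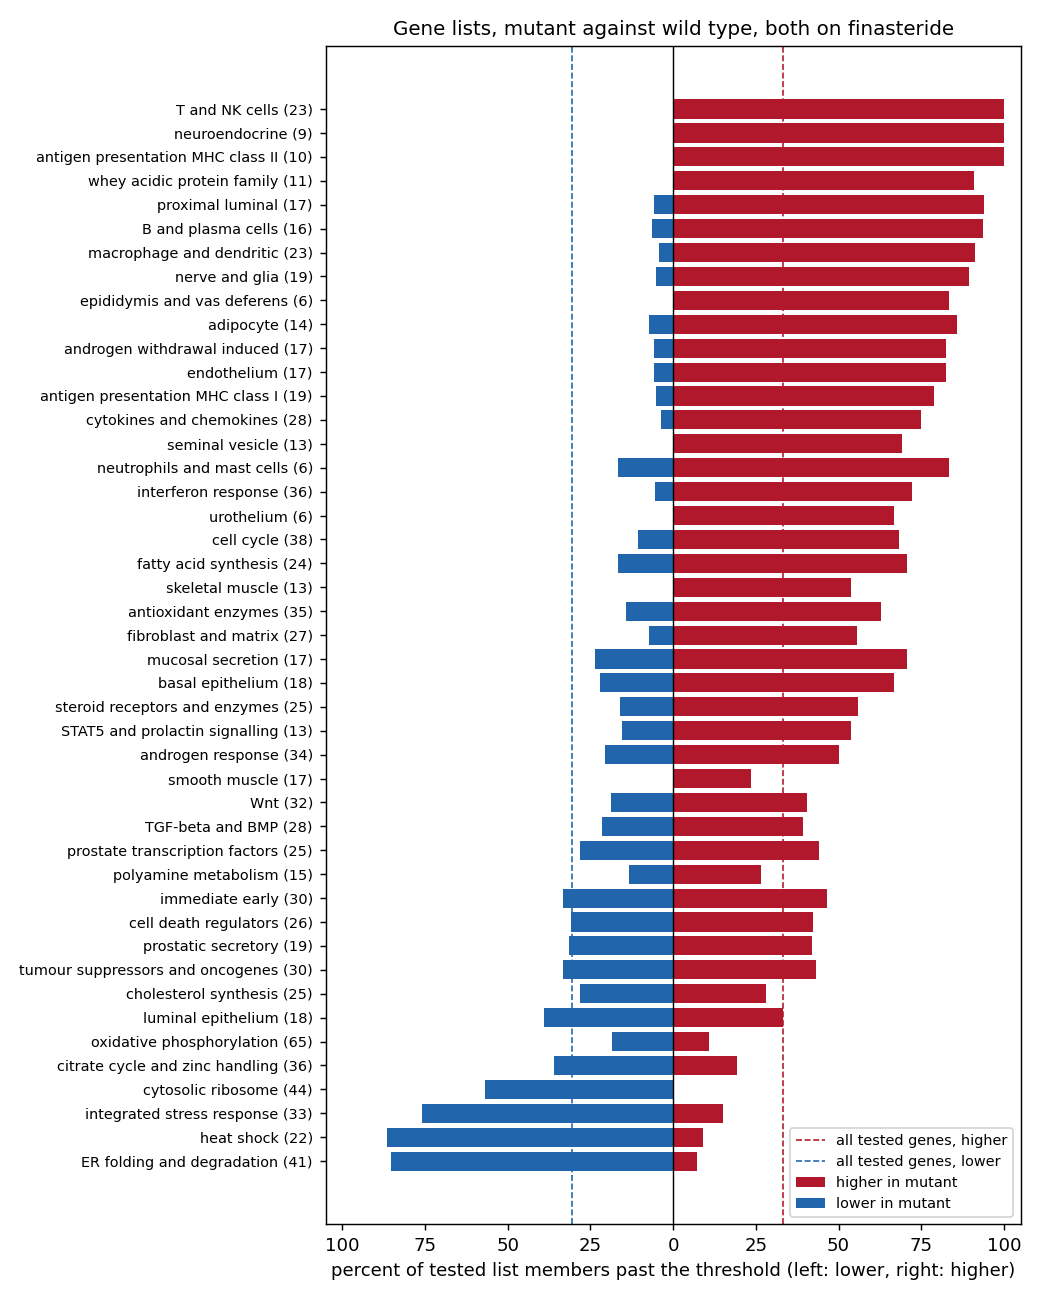
Percent of the tested members of each gene list that were higher (right) or lower (left) in mutant than in wild type libraries on finasteride at an adjusted p under 0.05 in limma, with the number tested in brackets. Dashed lines mark the shares of all 16506 genes, 33.2% higher and 30.4% lower, and lists with fewer than 6 tested members are not drawn.

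Several abundant secretory genes of the wild type prostate were low in the mutant under the drug. Pbsn, the gene of probasin, a secreted lipocalin that is a standard androgen target of mouse prostate, had values of 11.46, 10.35, 11.39, 11.13 and 11.09 in mutant libraries and 18.18, 17.50, 17.92, 18.12 and 18.32 in wild type libraries. The groups were separated by a wide gap in log2 units, and the difference was -6.92 (SE 0.19, adjusted p = 1.2e-12). Ren1, the gene of renin, had 6.73, 11.59, 9.04, 9.91 and 10.46 in mutant libraries and 18.51, 16.86, 17.05, 17.73 and 18.19 in wild type libraries. Its mutant values spread far more than those of Pbsn, with library 1 lowest and library 2 highest, and the difference was -8.12 (SE 1.27, adjusted p = 5.2e-05). Reads of Ren1 cannot be told apart from those of a near-identical copy where a strain carries one. Tgm4, the transglutaminase that cross-links seminal proteins, had 15.62, 17.00, 16.05, 16.16 and 16.54 in mutant libraries and 19.74, 19.42, 19.60, 19.62 and 19.64 in wild type libraries. All 5 mutant values fell below the wild type range, with a difference of -3.33 (SE 0.28, adjusted p = 1.0e-07). Fgl1, a secreted fibrinogen-like protein, differed by -6.12 and C1rb, a complement protease gene, by -4.33 (adjusted p = 1.2e-11 and 7.9e-08 in limma), and Pnliprp1, a lipase-related gene, by -6.35 (adjusted p = 3.6e-07 in limma). Agr2, a disulfide isomerase of secretory cells, had a difference of -2.09 (SE 0.23, adjusted p = 1.6e-06). With mutant library 2 alone, which lacked most of the seminal vesicle signal described further on, the differences of Pbsn, Ren1 and Tgm4 were -7.65, -6.08 and -2.60, and Ren1 no longer passed (adjusted p = 0.052 in limma).

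Other secretory genes went the other way or stayed within the spread. Among 19 tested prostatic secretory genes 8 rose and 6 fell, and 4 and 5 with mutant library 2 alone. Defb50, a defensin of the prostate, had 15.09, 16.65, 15.67, 15.81 and 16.36 in mutant libraries and 11.48, 13.39, 12.20, 12.45 and 12.65 in wild type libraries, a difference of 3.48 (SE 0.34, adjusted p = 4.6e-07). Sbp, the spermine-binding protein, did not pass: its values were 16.61, 15.91, 16.59, 16.36 and 16.22 in mutant libraries and 9.95, 19.36, 19.31, 18.34 and 10.39 in wild type libraries. Wild type libraries 1 and 5 were far below libraries 2, 3 and 4, so the wild type range covered all mutant values, and the difference was 0.87 (adjusted p = 0.65 in limma). Msmb, a small secreted protein of prostate, had 12.89, 13.06, 13.04, 12.90 and 13.05 in mutant libraries and 8.65, 13.62, 10.86, 10.82 and 10.79 in wild type libraries, where wild type library 2 lay above and the other wild type libraries below the mutant values. Its difference was 2.04 (SE 0.58, adjusted p = 0.0063), and adjusted p = 0.082 without the mixture-like libraries and 0.18 with mutant library 2 alone. The kallikrein Klk1b22, which belongs to a cluster of near-identical copies and so is uncertain, had 7.67, 9.38, 8.19, 8.30 and 8.75 in mutant libraries and 2.86, 2.001, 8.76, 8.07 and 2.38 in wild type libraries, with wild type libraries 3 and 4 as high as the mutant ones.

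Genes of the androgen response list moved in both directions, as all tested genes did (33.2% higher and 30.4% lower). Of 34 tested members 17 were higher and 7 lower, with a median of 0.50. The 5 members with the lowest p included Tmprss2, an androgen-regulated membrane protease, at 11.74, 11.80, 11.75, 11.68 and 11.69 in mutant libraries and 13.83, 13.82, 13.85, 13.87 and 13.88 in wild type libraries, a difference of -2.12 (SE 0.07, adjusted p = 5.3e-12). Mutant values kept within a narrow band below all wild type ones. Spdef, an epithelial ETS transcription factor, was lower at -1.38 and Sord, sorbitol dehydrogenase, at -1.85. Fkbp5, a co-chaperone of steroid receptors that androgen and glucocorticoid both induce, was higher, with 12.89, 13.32, 12.97, 13.00 and 13.07 in mutant libraries and 10.36, 11.54, 11.93, 11.32 and 10.24 in wild type libraries and a difference of 1.97 (SE 0.26, adjusted p = 8.7e-06). Steap4, a metalloreductase, rose as well, by 1.72 (adjusted p = 9.4e-08 in limma). Without the mixture-like libraries 12 were higher and 7 lower, and with mutant library 2 alone 11 and 9. The drug's targets are named here for their role. Srd5a2, a 5-alpha-reductase that finasteride inhibits, had 7.53, 6.91, 7.42, 7.47 and 7.36 in mutant libraries and 6.26, 6.76, 6.30, 6.20 and 5.63 in wild type libraries, a difference of 1.11 (SE 0.17, adjusted p = 5.3e-05). The lowest mutant value, in library 2, lay just above the highest wild type value, in library 2 of that group. Srd5a1, the other 5-alpha-reductase, differed by 0.395 (SE 0.11, adjusted p = 0.005) and by -0.12 after quantile normalization. With mutant library 2 alone Srd5a2 and Srd5a1 did not pass (adjusted p = 0.11 and 0.18 in limma). Of 25 tested steroid receptor and enzyme genes 14 rose and 4 fell, and 6 and 3 with that library alone.

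**Figure D2:**
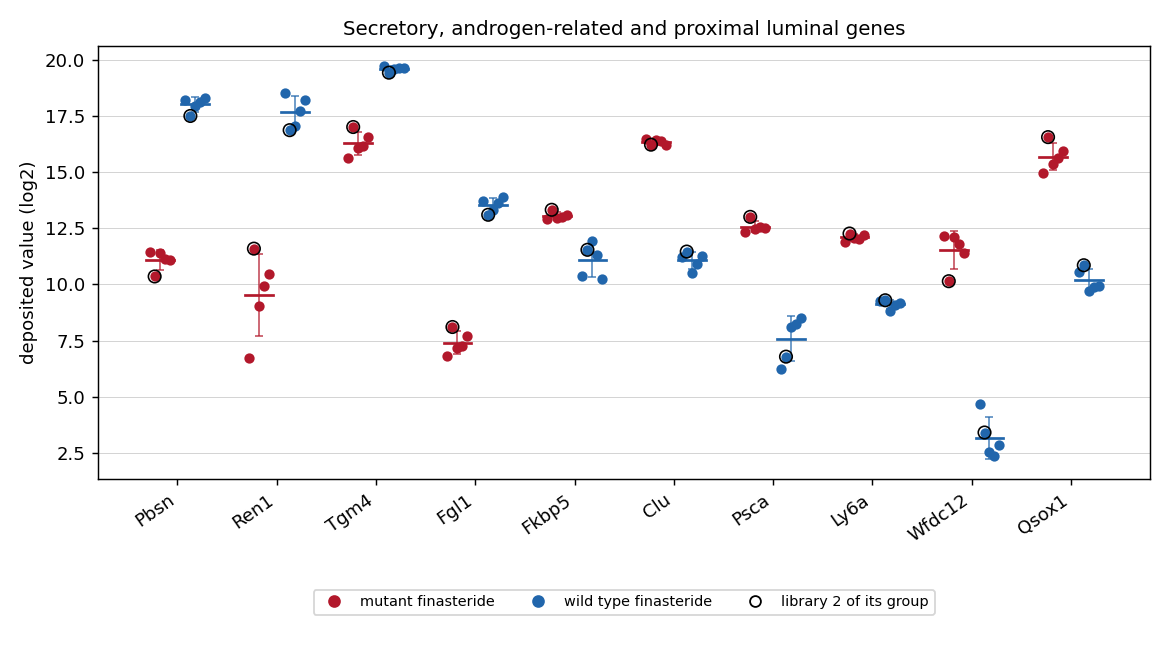
Deposited log2 values of 10 secretory, androgen-related and proximal luminal genes in each finasteride library. Mutant libraries are on the left of each pair, wild type libraries on the right, bars are means with SD (n = 5 each), and library 2 of each group is ringed. Pbsn, Ren1, Tgm4 and Fgl1 were low and Clu, Psca, Ly6a, Wfdc12 and Qsox1 high in every mutant library.

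Genes that normally mark androgen withdrawal and the proximal part of the ducts were high in the mutant. Of 17 tested androgen withdrawal genes 14 rose and 1 fell (median 1.17), and of 17 tested proximal luminal genes 16 rose and 1 fell (median 2.97). With mutant library 2 alone the counts were 11 and 0, and 14 and 1. The mean of the proximal luminal list was 10.50 to 10.90 in mutant libraries and 6.91 to 8.29 in wild type libraries. Clu, the secreted chaperone clusterin, had 16.48, 16.22, 16.41, 16.37 and 16.20 in mutant libraries and 11.20, 11.46, 10.50, 10.92 and 11.27 in wild type libraries, a difference of 5.26 (SE 0.14, adjusted p = 8.1e-13). Its groups were far apart, with little spread within either. Psca, prostate stem cell antigen, had 12.33, 13.00, 12.45, 12.54 and 12.52 in mutant libraries and 6.24, 6.78, 8.11, 8.25 and 8.51 in wild type libraries, where wild type libraries 1 and 2 were lowest, and a difference of 4.99 (SE 0.34, adjusted p = 9.9e-09). Ly6a, the surface protein Sca-1, was higher at 2.97 (adjusted p = 4.5e-12 in limma). Ppp1r1b, the phosphatase inhibitor DARPP-32, averaged 10.32 ± 0.05 in mutant libraries and 7.18 ± 0.55 in wild type libraries (SD, n = 5 each). Ltf, lactoferrin, an iron-binding defence protein, averaged 8.93 ± 0.60 in mutant libraries and 2.91 ± 0.95 in wild type libraries (SD, n = 5 each), with wild type library 2 highest of its group at 4.56.

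Antiproteases of the whey acidic protein family were among the largest increases. Of the 22 family genes present, 11 passed the level filter, and 10 of these rose and 0 fell, with a median of 3.99. The filter favours such counts, since members low in wild type enter through their mutant values. Wfdc12 averaged 3.16 in wild type finasteride and 2.60 in wild type vehicle libraries, both under the filter. Wfdc12 had 12.17, 10.14, 12.13, 11.80 and 11.41 in mutant libraries and 4.67, 3.41, 2.54, 2.35 and 2.85 in wild type libraries, a difference of 8.36 (SE 0.43, adjusted p = 5.0e-10). Mutant library 2 was lowest of its group and still above all wild type values. Wfdc15b had 12.20, 13.65, 12.56, 12.80 and 13.12 in mutant libraries and 7.93, 6.84, 0.85, 2.76 and 2.31 in wild type libraries, with wild type libraries 1 and 2 above libraries 3, 4 and 5. Wfdc6b and Wfdc8 differed by 6.41 and 5.78 (adjusted p = 1.4e-09 and 1.1e-09 in limma). The redox genes followed. Qsox1, a secreted sulfhydryl oxidase, had 14.96, 16.55, 15.37, 15.62 and 15.93 in mutant libraries and 10.56, 10.85, 9.70, 9.89 and 9.92 in wild type libraries, a difference of 5.50 (SE 0.37, adjusted p = 8.2e-09). Gpx3, a secreted glutathione peroxidase, had 15.46, 18.44, 16.53, 17.19 and 17.73 in mutant libraries and 13.86, 13.64, 13.85, 13.38 and 12.69 in wild type libraries, with the mutant values spread widest. Gsta4, a glutathione transferase, averaged 10.45 ± 0.12 in mutant libraries and 7.70 ± 0.23 in wild type libraries (SD, n = 5 each). Of 35 tested antioxidant genes 22 rose and 5 fell, and Prdx6, a peroxiredoxin, was among those lower, at 14.44, 15.26, 14.71, 14.83 and 15.10 in mutant libraries and 17.91, 17.12, 17.44, 17.53 and 17.64 in wild type libraries. The metallothioneins, which bind zinc and copper, were lower too. Mt1 averaged 12.33 ± 0.20 in mutant libraries and 15.35 ± 0.23 in wild type libraries (SD, n = 5 each) and Mt2 11.65 ± 0.18 in mutant libraries and 14.75 ± 0.18 in wild type libraries (SD, n = 5 each). Mt3 differed by -4.68 (SE 0.43, adjusted p = 2.2e-07). Mcoln3, a cation channel of endosomes and lysosomes, differed by -5.637 (SE 0.31, adjusted p = 9.6e-10) and Fut9, a fucosyltransferase, by -4.76 (SE 0.29, adjusted p = 3.0e-09).

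Epithelial markers of the prostate were present in all 10 libraries. Krt8, a luminal keratin, had 12.48 to 12.93 in mutant libraries and 12.18 to 12.78 in wild type libraries, a difference of 0.197 that did not pass (adjusted p = 0.11 in limma). Krt18, its partner keratin, and Hoxb13, a homeobox factor of the prostate, were lower at -0.67 and -0.84 (adjusted p = 9.5e-06 and 1.8e-05 in limma). Among 18 tested luminal genes 6 rose and 7 fell (median 0.08). Among 18 tested basal genes 12 rose and 4 fell. Trp63, the basal transcription factor p63, averaged 9.84 ± 0.10 in mutant libraries and 8.63 ± 0.19 in wild type libraries (SD, n = 5 each), Krt5, a basal keratin, differed by 0.86 and Itgb4, an integrin of the basement membrane contact, by 1.22, while Krt14, another basal keratin, was lower at -0.67 (adjusted p = 0.44 with mutant library 2 alone, in limma). Of 25 tested prostate transcription factors 11 rose and 7 fell. Sox2 had 7.55, 8.17, 7.59, 7.90 and 7.98 in mutant libraries and 5.82, 5.58, 5.65, 5.71 and 6.01 in wild type libraries and Sox9 differed by 1.42, both with no overlap between the groups. Klf5, a zinc finger factor of epithelia, averaged 8.86 ± 0.10 in mutant libraries and 6.54 ± 0.74 in wild type libraries (SD, n = 5 each). Urothelial genes, which could come from the urethra, were higher in 4 of 6 tested members and lower in 0 (9.60 to 10.03 in mutant and 7.93 to 8.53 in wild type list means). Upk2, a uroplakin, had 6.96, 8.45, 7.53, 7.55 and 7.72 in mutant libraries and 5.11, 4.50, 4.59, 4.61 and 4.36 in wild type libraries and Upk1a, another, 12.26, 13.999, 12.61, 12.92 and 13.19 in mutant libraries and 9.11, 11.32, 10.66, 10.01 and 9.26 in wild type libraries. Upk3a, also a defining gene, was below the level filter. Their part in the other results was not tested.

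The protein folding genes of the endoplasmic reticulum were lower in the mutant. Of 41 tested members 35 fell and 3 rose, with a median of -0.91. The integrated stress response list had 25 lower and 5 higher of 33 (median -1.23) and the heat shock list 19 lower and 2 higher of 22 (median -0.98). Without the mixture-like libraries the counts lower were 27, 25 and 15, and with mutant library 2 alone 26, 24 and 8. To see how many genes of the first list carry a known motif, the 250 bases before each annotated start were read. They came from RefSeq (mouse GRCm38.p6), by symbol, for 30 of the 41 list members. The motif searched was the endoplasmic reticulum stress element, written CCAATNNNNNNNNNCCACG, on both strands. It was found in 37 of 32851 promoters (0.113%) and in 9 of the 30 list promoters, of which 8 belong to genes that were lower. Of all 30 matched list genes 27 were lower, a share near that of the genes with the motif. Since 27 of the 30 fell, these counts could hardly show whether the motif set apart the members that fell. The motif is the sequence bound by ATF6 with NF-Y, known from human and mouse cells. The window before Hspa5, the chaperone BiP, is printed 5′ to 3′ on the strand of the gene.

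Promoter of Hspa5, GRCm38.p6, chr2:34771840-34772089, + strand, with the stress element in capitals:
Hspa5: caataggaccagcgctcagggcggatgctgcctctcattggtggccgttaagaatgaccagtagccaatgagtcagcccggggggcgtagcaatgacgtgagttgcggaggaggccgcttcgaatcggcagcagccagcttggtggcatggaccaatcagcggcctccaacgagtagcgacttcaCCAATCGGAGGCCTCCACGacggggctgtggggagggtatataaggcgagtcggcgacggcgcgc

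Each match is printed in the direction of the element, with both of its boxes in capitals and the spacer in lower case, to show that the spacer differs while the boxes are the same by construction. Hsp90b1 has a pair of matches.
Hspa5, chr2:34772025-34772043, + strand: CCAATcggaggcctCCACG
Hsp90b1, chr10:86705638-86705656, - strand: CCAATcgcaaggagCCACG
Hsp90b1, chr10:86705533-86705551, + strand: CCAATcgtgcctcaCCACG
Calr, chr8:84847075-84847093, + strand: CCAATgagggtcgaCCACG
Canx, chr11:50325800-50325818, - strand: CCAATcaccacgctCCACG
Pdia6, chr12:17266491-17266509, + strand: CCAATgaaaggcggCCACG
Dnajc3, chr14:118937827-118937845, + strand: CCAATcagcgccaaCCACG
Creld2, chr15:88819520-88819538, - strand: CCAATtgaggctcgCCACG
Syvn1, chr19:6046532-6046550, + strand: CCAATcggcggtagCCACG
Derl3, chr10:75893242-75893260, - strand: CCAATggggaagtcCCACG

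The genes with such a match differed widely in size of effect. Hspa5 had 14.09, 14.96, 14.39, 14.46 and 14.84 in mutant libraries and 16.48, 16.21, 17.13, 16.70 and 16.14 in wild type libraries, a difference of -1.98 (SE 0.20, adjusted p = 4.8e-07). All mutant values were below the wild type ones, and library 2 was the mutant library with the highest value. Derl3, which moves misfolded proteins out of the endoplasmic reticulum, differed by -3.14 (SE 0.23, adjusted p = 2.0e-08), Syvn1, its ubiquitin ligase partner, by -3.01 (SE 0.23, adjusted p = 3.7e-08) and Creld2, a stress-induced chaperone, by -2.81 (SE 0.26, adjusted p = 2.4e-07). Dnajc3, a co-chaperone, had 12.84, 13.00, 12.88, 12.92 and 13.04 in mutant libraries and 14.15, 14.35, 14.91, 14.78 and 14.63 in wild type libraries. Hsp90b1, the reticulum's HSP90, and Canx, the lectin calnexin, were lower at -1.24 and -0.707, and Pdia6, a disulfide isomerase, at -0.82 with overlapping groups (adjusted p = 0.0019, and 0.081 without the mixture-like libraries, in limma). Calr, calreticulin, had a difference of -0.42 that did not pass (adjusted p = 0.065 in limma). Without a match of these letters in the window, Herpud1, a membrane protein of the degradation machinery, had 12.07, 12.12, 12.04, 12.05 and 12.04 in mutant libraries and 15.21, 14.69, 15.76, 15.17 and 14.15 in wild type libraries and a difference of -2.93 (SE 0.20, adjusted p = 1.1e-08). Hyou1, a large chaperone, averaged 12.49 ± 0.18 in mutant libraries and 14.67 ± 0.37 in wild type libraries (SD, n = 5 each). Atf6, the transmembrane sensor, had 11.12, 11.14, 11.17, 11.03 and 11.18 in mutant libraries and 12.85, 12.97, 12.99, 13.00 and 13.01 in wild type libraries, with little spread in either group, and a difference of -1.84 (SE 0.05, adjusted p = 1.3e-12).

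The integrated stress response is carried by Atf4, a transcription factor, and its targets for amino acid supply and cell death. Atf4 had 11.56, 11.79, 11.59, 11.68 and 11.62 in mutant libraries and 13.44, 12.90, 13.52, 13.32 and 13.13 in wild type libraries, a difference of -1.62 (SE 0.10, adjusted p = 2.4e-09). Asns, asparagine synthetase, had 10.30, 10.01, 10.32, 10.24 and 10.23 in mutant libraries and 13.12, 12.45, 12.87, 12.85 and 12.88 in wild type libraries, a difference of -2.61 (SE 0.10, adjusted p = 2.4e-11). Chac1, which breaks down glutathione, had 7.25, 6.29, 7.01, 6.72 and 6.57 in mutant libraries and 11.08, 10.43, 12.13, 11.52 and 10.13 in wild type libraries, a difference of -4.29 (SE 0.30, adjusted p = 1.1e-08). Every value of these 3 genes in mutant libraries lay below every one in wild type libraries. Ddit3, the stress factor CHOP, had 8.09, 8.29, 8.10, 8.10 and 8.19 in mutant libraries and 11.44, 10.50, 12.12, 11.47 and 9.99 in wild type libraries and Gdf15, a secreted stress cytokine, 5.60, 5.89, 5.53, 5.77 and 5.19 in mutant libraries and 9.97, 8.33, 9.52, 9.76 and 9.99 in wild type libraries. Among the other members Cbs, a cystathionine synthase, rose, averaging 10.95 ± 0.18 in mutant libraries and 8.99 ± 0.34 in wild type libraries (SD, n = 5 each), and Nupr1, a small stress nuclear protein, had 11.43, 11.01, 11.43, 11.29 and 11.21 in mutant libraries and 6.33, 12.04, 11.10, 10.18 and 6.20 in wild type libraries, with wild type libraries 1 and 5 low. The composite element of ATF4 with C/EBP, written TGATGNAA, was searched the same way. It was in 1134 of 32851 promoters (3.45%) and in 7 of the 28 list members matched, 6 of them lower. Of all 28 matched members 23 were lower, again a share near that of the genes with the motif. The window before Chac1 is printed with the match in capitals, followed by each match in the direction of the element, with the letters that the motif fixes in capitals.

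Promoter of Chac1, GRCm38.p6, chr2:119350992-119351241, + strand, with the composite element in capitals on the opposite strand:
Chac1: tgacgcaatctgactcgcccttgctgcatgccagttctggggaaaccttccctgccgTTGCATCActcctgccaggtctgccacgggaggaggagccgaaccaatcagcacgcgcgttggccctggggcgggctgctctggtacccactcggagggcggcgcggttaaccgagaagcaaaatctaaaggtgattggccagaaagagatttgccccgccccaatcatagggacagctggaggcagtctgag
Atf3, chr1:191183436-191183443, + strand: TGATGcAA
Asns, chr6:7693225-7693232, - strand: TGATGaAA
Chac1, chr2:119351049-119351056, - strand: TGATGcAA
Slc7a11, chr3:50443672-50443679, - strand: TGATGcAA
Slc7a11, chr3:50443653-50443660, + strand: TGATGcAA
Nupr1, chr7:126625573-126625580, + strand: TGATGcAA
Aars, chr8:111033730-111033737, - strand: TGATGcAA
Gars, chr6:55037971-55037978, - strand: TGATGaAA

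Of the genes with this letter match, Atf3, an early stress factor, Slc7a11, the cystine transporter, and the tRNA synthetases Aars and Gars differed by -2.02, -1.66, -1.02 and -1.43 (adjusted p = 2.3e-08, 5.1e-05, 1.7e-08 and 9.0e-09 in limma), and Nupr1 differed by 2.11 (adjusted p = 0.049 in limma), a call that was lost when any of the mutant libraries or wild type library 1 or 5 was left out (adjusted p = 0.058 to 0.14). The cytosolic heat shock genes, which answer unfolded proteins in the cytosol, were lower as well. Their list mean was 9.94 to 10.15 in mutant and 10.35 to 11.66 in wild type libraries on finasteride. On vehicle it was 9.99 to 10.20 in mutant and 10.05 to 10.21 in wild type libraries. The wild type finasteride libraries thus lay above all other groups, while the mutant finasteride values were close to those on vehicle. Hspa8, the constitutive HSP70, had 11.18, 12.13, 11.50, 11.47 and 11.81 in mutant libraries and 13.84, 13.61, 14.24, 13.71 and 12.83 in wild type libraries, a difference of -2.03 (SE 0.22, adjusted p = 1.5e-06), and Hsph1, its nucleotide exchange factor, 9.40, 10.29, 9.67, 9.80 and 10.07 in mutant libraries and 12.94, 12.43, 14.003, 13.16 and 11.16 in wild type libraries, a difference of -2.89 (SE 0.36, adjusted p = 5.7e-06). Hspa1a, the inducible HSP70, which has a near-identical copy and so is uncertain, had 7.45, 7.51, 7.20, 7.60 and 7.37 in mutant libraries and 11.52, 9.70, 11.69, 10.81 and 7.70 in wild type libraries. Wild type library 5 was close to the mutant values while the other 4 were above 9.69, and the difference was -2.86 (SE 0.55, adjusted p = 3.2e-04), with adjusted p = 0.065 for mutant library 2 alone. Hspb8, a small heat shock protein, rose, averaging 11.04 ± 0.12 in mutant libraries and 10.005 ± 0.18 in wild type libraries (SD, n = 5 each). The heat shock element, written GAANNTTCNNGAA, was in 153 of 32851 promoters (0.466%) and in 1 of 17 list members matched. Cytosolic ribosomal protein genes were lower in 25 of 44 tested members and higher in 0, with a median of -0.45, and 18 were lower and 0 higher after quantile normalization. Without the mixture-like libraries the count was 3 lower and 0 higher, and with mutant library 2 alone 1 lower and 2 higher. Rpl4 had 14.23, 14.84, 14.42, 14.48 and 14.72 in mutant libraries and 15.23, 14.84, 15.20, 15.25 and 15.27 in wild type libraries, overlapping between the groups.

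**Figure D3:**
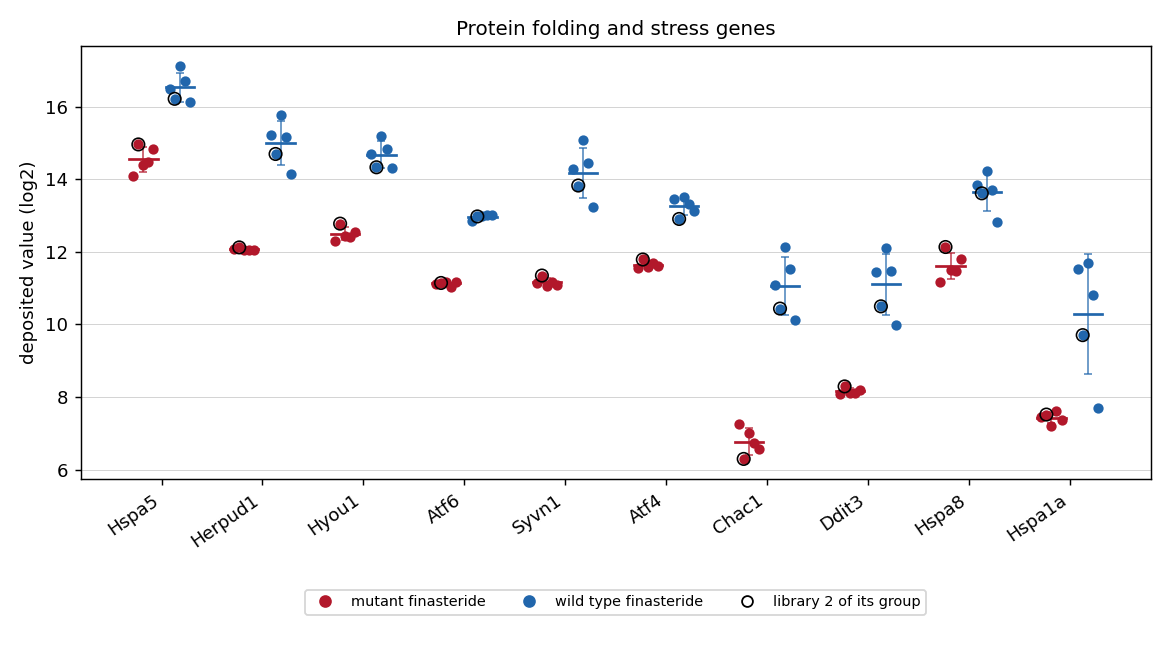
Deposited log2 values of 10 protein folding and stress genes in each finasteride library, mutant on the left and wild type on the right of each pair, with means and SD (n = 5 each) and library 2 of each group ringed. Every mutant library was below every wild type library for these genes, with the narrowest gap in Hspa1a, where wild type library 5 was low.

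The mean levels of the B and plasma cell, T and NK cell and MHC class II lists were higher in every mutant library than in every wild type library. In the list of B and plasma cells 15 of 16 tested genes were higher and 1 lower (median 3.78), of 23 tested T and NK cell genes 23 rose and 0 fell (median 2.23), and of 10 tested MHC class II genes 10 rose and 0 fell (median 1.68). With mutant library 2 alone 14, 23 and 10 rose and 0 fell in each list, and without the mixture-like libraries 15, 23 and 10 rose. The mean of the B and plasma cell list was 7.97 to 8.30 in mutant libraries and 4.63 to 5.06 in wild type libraries. Ighm, the heavy chain of IgM, had 13.72, 13.71, 13.78, 13.68 and 13.68 in mutant libraries and 7.71, 6.996, 7.49, 6.86 and 6.61 in wild type libraries, a difference of 6.58 (SE 0.22, adjusted p = 6.3e-12). Igkc, the kappa light chain, had 12.58, 13.66, 12.89, 12.88 and 13.20 in mutant libraries and 6.24, 5.16, 6.16, 5.84 and 4.09 in wild type libraries and Igha, the heavy chain of IgA, 9.75, 13.06, 10.92, 11.58 and 12.09 in mutant libraries and 4.27, 5.78, 5.66, 5.03 and 3.97 in wild type libraries. Both antibody groups were far apart, and Igha spread most among mutant libraries. Antibody genes share sequence, so the division between chains is uncertain. Igj, the chain that joins antibody units for secretion, differed by 6.43 (SE 0.23, adjusted p = 1.3e-11), and Cd79a, the B cell receptor's signalling chain, had 6.32, 6.98, 6.28, 6.39 and 6.45 in mutant libraries and 1.996, 2.73, 3.02, 2.43 and 2.83 in wild type libraries. Cr2, a complement receptor of B cells and follicular dendritic cells, had 8.90, 5.003, 8.87, 8.37 and 7.99 in mutant libraries and 2.50, 3.63, 2.81, 0.88 and 1.97 in wild type libraries, with mutant library 2 well below its group.

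Cd3e, a chain of the T cell receptor complex, had 6.16, 6.84, 6.52, 6.52 and 6.58 in mutant libraries and 4.01, 4.07, 3.88, 4.19 and 3.11 in wild type libraries and Cd8a, the co-receptor of cytotoxic cells, 7.38, 8.01, 7.43, 7.59 and 7.84 in mutant libraries and 5.01, 4.26, 5.36, 4.15 and 3.90 in wild type libraries. The differences were 2.67 (SE 0.20, adjusted p = 2.5e-08) and 3.11 (SE 0.24, adjusted p = 3.8e-08). H2-Aa, a class II chain, averaged 11.48 ± 0.17 in mutant libraries and 9.77 ± 0.40 in wild type libraries (SD, n = 5 each), and B2m, the light chain of class I, had 17.50, 18.11, 17.74, 17.77 and 18.12 in mutant libraries and 15.36, 15.52, 15.26, 15.21 and 15.24 in wild type libraries, a difference of 2.53 (SE 0.18, adjusted p = 1.6e-08). H2-Q4, a member of a group of similar class I genes and so uncertain, differed by 1.53. Of 19 tested class I genes 15 rose and 1 fell. Among 28 tested cytokine and chemokine genes 21 rose and 1 fell. Ccl8 averaged 7.26 ± 0.31 in mutant libraries and 3.36 ± 0.66 in wild type libraries (SD, n = 5 each), Cxcl13, which draws B cells, 7.42 ± 0.21 in mutant libraries and 4.99 ± 0.35 in wild type libraries (SD, n = 5 each), Ccl5, which draws T cells, 8.10 ± 0.43 in mutant libraries and 5.03 ± 0.60 in wild type libraries (SD, n = 5 each) and Ccl28, a mucosal chemokine, 6.73 ± 0.82 in mutant libraries and 3.07 ± 0.50 in wild type libraries (SD, n = 5 each). Of 36 interferon response genes 26 rose and 2 fell, 16 and 2 with mutant library 2 alone, and Oas3, an antiviral enzyme, differed by 2.35. Macrophage and dendritic markers were higher in 21 and lower in 1 of 23 tested. The receptor Cx3cr1 differed by 1.49, and Mertk, a receptor for dying cells, was the member that fell, with 9.79, 9.71, 9.77, 9.69 and 9.73 in mutant libraries and 11.23, 11.32, 11.13, 11.39 and 11.56 in wild type libraries. Cd52, a surface peptide of lymphocytes that male tract epithelium also makes, had 14.53, 15.10, 14.75, 14.89 and 15.08 in mutant libraries and 9.87, 11.66, 10.27, 10.15 and 9.97 in wild type libraries. Mucosal secretion genes rose in 12 and fell in 4 of 17 tested, 7 and 4 with mutant library 2 alone, with Lcn2, a siderophore-binding protein, at 10.38, 11.12, 10.46, 10.61 and 10.68 in mutant libraries and 6.99, 7.12, 6.44, 6.68 and 6.39 in wild type libraries and Tff3, a mucin-associated peptide, averaging 6.89 ± 0.35 in mutant libraries and 1.78 ± 0.52 in wild type libraries (SD, n = 5 each). Of 31 mucosal genes present 17 passed the level filter. Tff3 averaged 2.02 in mutant vehicle and 2.01 in wild type vehicle libraries, so it entered through its mutant finasteride values. Genes that enter in this way can hardly come out lower. Bulk RNA cannot tell more cells of a type from more RNA per cell.

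Markers of tissues next to the prostate moved as well, but not in the same libraries. The seminal vesicle list (13 tested, 9 higher and 0 lower) averaged 9.31 in mutant library 2 and 12.0 to 12.3 in the other 4 mutant libraries, against 5.36 to 7.93 in wild type libraries. Svs2 had 21.17, 11.52, 21.00, 20.49 and 20.06 in mutant libraries and 9.20, 9.01, 7.91, 7.84 and 7.78 in wild type libraries, Svs4 14.57, 16.25, 15.20, 15.44 and 16.06 in mutant libraries and 12.80, 8.21, 6.55, 6.61 and 7.25 in wild type libraries and Svs5 19.04, 13.04, 18.87, 18.47 and 17.91 in mutant libraries and 13.57, 9.05, 7.73, 7.59 and 8.02 in wild type libraries. For Svs2 mutant library 2 was far below the other mutant libraries but above every wild type value. For Svs5 it lay below wild type library 1 and above the other 4, and for Svs4 it was the highest mutant library. On vehicle the seminal vesicle list averaged 15.81, 6.21 and 14.74 in wild type libraries 1, 2 and 3 and 9.44 to 9.91 in mutant libraries. High values of this list were thus not particular to mutants on finasteride. The epididymis list (6 tested, 5 higher and 0 lower) averaged 5.67 in mutant library 2 and 10.7 to 11.3 in the other 4, against 4.04 to 8.71 in wild type libraries, where library 2 was highest. Of 19 epididymis genes present only these 6 passed the level filter. Genes low in wild type could enter through their mutant values, and such genes can hardly come out lower. Crisp1, a sperm-coating protein of the epididymis, had 14.30, 4.54, 14.07, 13.69 and 13.27 in mutant libraries and 2.92, 13.42, 1.42, 1.20 and 4.12 in wild type libraries and Akr1b7, a reductase of the vas deferens, 15.23, 5.39, 15.06, 14.65 and 14.09 in mutant libraries and 3.53, 15.18, 3.08, 4.76 and 4.91 in wild type libraries. Both genes were high in mutant libraries 1, 3, 4 and 5 and in wild type library 2 and low in the others. On vehicle the epididymis list averaged 5.79 to 7.93 in wild type and 3.33 to 4.87 in mutant libraries. The nerve and glia list (19 tested, 17 higher and 1 lower) averaged 5.84 in mutant library 2 and 7.64 to 8.43 in the other 4, against 4.78 to 5.83 in wild type libraries. Nefh, a neurofilament chain, had 13.45, 4.32, 13.28, 12.93 and 12.23 in mutant libraries and 6.66, 4.01, 3.93, 4.14 and 3.37 in wild type libraries and Snap25, a synaptic protein, 9.05, 5.04, 8.94, 8.60 and 8.14 in mutant libraries and 4.09, 3.02, 1.58, 2.88 and 1.81 in wild type libraries. The 9 tested neuroendocrine genes, all higher, averaged 4.65 in mutant library 2 and 6.23 to 7.01 in the other 4. On vehicle the nerve and glia list averaged 6.23, 8.29 and 7.88 in wild type libraries 1, 2 and 3 and 4.98 to 5.87 in mutant libraries. The neuroendocrine list averaged 4.83, 7.53 and 6.84 in those wild type libraries and 3.56 to 4.35 in mutant vehicle libraries. With library 2 alone 1 seminal vesicle, 1 epididymis, 2 nerve and 2 neuroendocrine genes were higher, and 1 epididymis and 1 nerve gene lower. None of Svs2, Svs4, Svs5, Crisp1, Akr1b7, Nefh and Snap25 then passed (adjusted p = 0.089 to 0.99 in limma), and the differences of Crisp1, Akr1b7 and Nefh were -0.079, -0.90 and -0.10. Without wild type library 2 the counts higher were 9, 5, 16 and 9, and without the mixture-like libraries 6, 3, 10 and 7, where Crisp1 and Akr1b7 no longer passed (adjusted p = 0.18 and 0.22 in limma). Also low in library 2 were Pfkfb3, a regulator of glycolysis (15.17, 9.02, 14.94, 14.58 and 13.98 in mutant libraries and 7.87, 8.30, 7.91, 7.87 and 7.62 in wild type libraries), Cdo1, a cysteine dioxygenase (15.41, 10.19, 15.11, 14.85 and 14.22 in mutant libraries and 9.21, 7.99, 5.47, 6.54 and 7.06 in wild type libraries) and Dusp4, a phosphatase (10.51, 5.79, 10.18, 10.05 and 9.29 in mutant libraries and 3.23, 5.27, 2.74, 3.39 and 3.11 in wild type libraries). With library 2 alone Cdo1 no longer passed (adjusted p = 0.15 in limma). The part of these tissues in the other results was not tested, beyond the counts with library 2 alone.

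**Figure D4:**
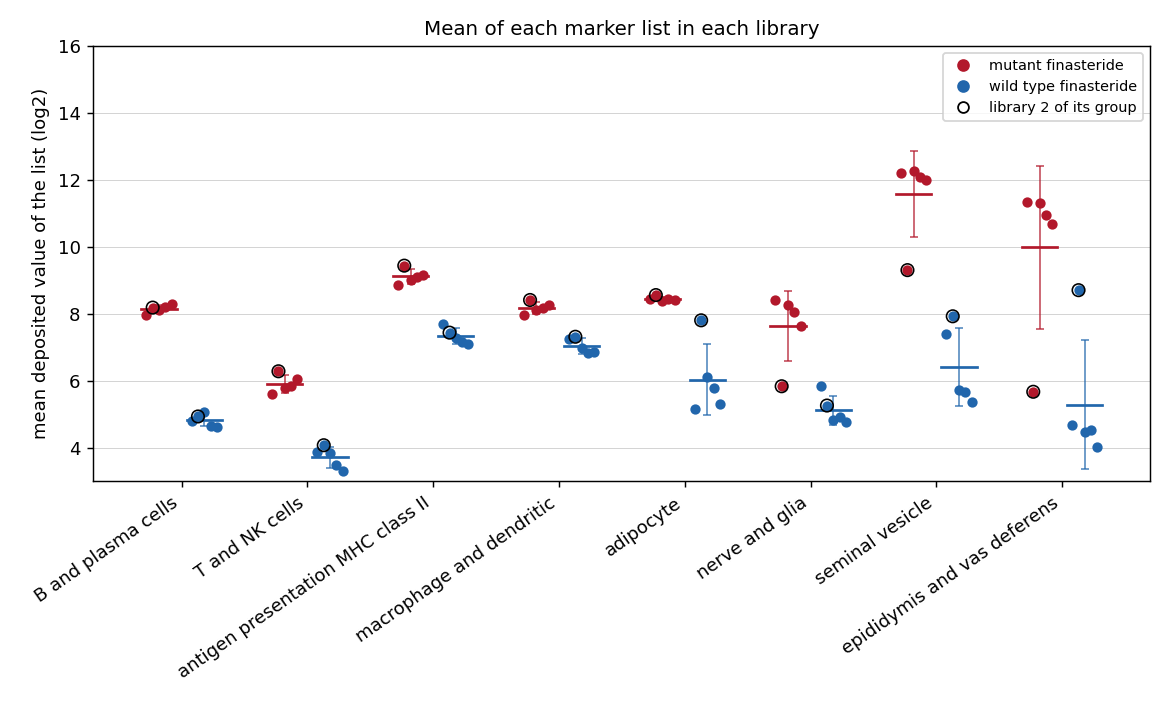
Mean deposited log2 value of 8 marker lists in each finasteride library, mutant on the left and wild type on the right, with means and SD (n = 5 each) and library 2 of each group ringed. Every list drawn except that of the epididymis separated all 5 mutant from all 5 wild type libraries. The gap was narrowest for nerve and glia, with a lowest mutant mean of 5.84 and a highest wild type mean of 5.83. Mutant library 2 had an epididymis list mean of 5.67 and the other 4 mutant libraries 10.7 to 11.3.

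Stromal and fat markers were less even. Of 14 tested adipocyte genes 12 rose and 1 fell (median 2.59), 9 and 0 with mutant library 2 alone and 12 and 1 without wild type library 2. The mean of this list was 8.38 to 8.56 in mutant libraries, against 7.81 in wild type library 2 and 5.17 to 6.11 in the other 4 wild type libraries. On vehicle it was 7.02 to 7.54 in mutant and 8.42 to 8.84 in wild type libraries. High values of the adipocyte list were thus not particular to mutants on finasteride. Adipoq, the fat cell hormone adiponectin, had 7.38, 8.11, 7.51, 7.48 and 7.69 in mutant libraries and 2.88, 6.98, 3.93, 2.64 and 2.73 in wild type libraries, with wild type library 2 close to the mutant ones, and Lep, leptin, averaged 5.87 ± 0.38 in mutant libraries and 2.16 ± 0.65 in wild type libraries (SD, n = 5 each). Of 17 tested endothelial genes 14 rose and 1 fell, and 7 and 1 with mutant library 2 alone. Pecam1 differed by 0.98 (SE 0.09, adjusted p = 1.5e-07), and Emcn, endomucin, was the member that fell, with 7.74, 7.05, 7.72, 7.53 and 7.56 in mutant libraries and 9.05, 8.98, 9.17, 9.33 and 9.34 in wild type libraries. Of 27 tested fibroblast and matrix genes 15 rose and 2 fell, but 4 rose without the mixture-like libraries and 4 with mutant library 2 alone. Igf1, a growth factor of stroma, averaged 9.40 ± 0.34 in mutant libraries and 8.04 ± 0.12 in wild type libraries (SD, n = 5 each). Of 17 tested smooth muscle genes 4 rose and 0 fell. The counts were 0 and 0 without the mixture-like libraries, 0 and 2 with mutant library 2 alone and 8 and 0 after quantile normalization. Skeletal muscle genes rose in 7 and fell in 0 of 13 tested, in 3 and 0 both without the mixture-like libraries and after quantile normalization, and in 4 and 0 with mutant library 2 alone. Cell division genes were higher in 26 and lower in 4 of 38 tested. After quantile normalization 19 were higher and 7 lower, and with mutant library 2 alone 16 and 1. Mcm5, a replication helicase subunit, had 7.65, 8.16, 7.88, 7.85 and 7.80 in mutant libraries and 6.37, 6.13, 5.83, 5.79 and 5.62 in wild type libraries, a difference of 1.92 (SE 0.13, adjusted p = 1.1e-08). Ccnd1, cyclin D1, had 12.37, 11.14, 12.17, 12.05 and 11.74 in mutant libraries and 10.07, 10.19, 9.50, 9.78 and 9.95 in wild type libraries. Mki67, a marker of cycling cells, had 8.25, 7.90, 8.37, 8.17 and 8.32 in mutant libraries and 5.70, 8.24, 5.98, 6.13 and 5.83 in wild type libraries, where wild type library 2 reached the mutant range, and a difference of 1.83 (SE 0.36, adjusted p = 3.8e-04), with adjusted p = 0.11 for mutant library 2 alone. Of 32 tested Wnt genes 13 rose and 6 fell, with the ligand Wnt4 at 2.75 and Nkd1, an antagonist, at -2.93. The balance of the Wnt list turned after quantile normalization (7 higher and 9 lower, median -0.06 against 0.26), and it was 6 and 4 without the mixture-like libraries and 3 and 4 with mutant library 2 alone. Pik3cb, a catalytic subunit of PI3 kinase, had 8.87, 8.99, 8.87, 8.94 and 8.88 in mutant libraries and 10.44, 10.40, 10.41, 10.43 and 10.48 in wild type libraries, and Etv4, an ETS factor, differed by 2.28. Among 24 tested fatty acid synthesis genes 17 rose and 4 fell, including Dgat2, which makes triglyceride, at 2.09 and Scd1, a desaturase, at 1.07, while Acsl3, which activates fatty acids, had 9.88, 10.16, 10.06, 9.98 and 10.19 in mutant libraries and 11.99, 12.49, 12.72, 12.51 and 12.26 in wild type libraries. In that list 11 rose and 3 fell without the mixture-like libraries, and 10 and 3 with mutant library 2 alone. Nuclear oxidative phosphorylation genes had 7 higher and 12 lower of 65 (median -0.04), and 17 higher and 8 lower after quantile normalization (median 0.09). They had 1 higher and 4 lower without the mixture-like libraries and 23 higher and 0 lower with mutant library 2 alone, so their direction is not settled. The citrate cycle and zinc list had 7 higher and 13 lower of 36, 11 and 10 after quantile normalization, 4 and 7 without the mixture-like libraries and 4 and 9 with mutant library 2 alone.

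The genotype difference on vehicle is taken between 6 other libraries, while its standard errors come from the fit of all 16 and so share a variance estimate with the finasteride comparison. On vehicle 5300 genes (32.1%) passed, 2408 (14.6%) higher and 2892 (17.5%) lower in the mutant, with 3 libraries a group. The 3799 genes that passed under both treatments are 36.2% of those under finasteride and 71.7% of those on vehicle. Of these 1487 (39.1%) had the same direction, 847 higher and 640 lower, and 2312 the opposite one, with 1486 higher in the mutant on finasteride and lower on vehicle, and 826 the reverse. Across all tested genes 41.6% had the same sign, and Pearson's r of the differences across genes was -0.16, a description over genes that are not independent. The interaction, the finasteride difference minus the vehicle difference, passed in 9339 genes (56.6%), of which 4858 (29.4%) had a higher and 4481 (27.1%) a lower difference on finasteride. Without the mixture-like libraries 1530 genes passed on vehicle and 4843 in the interaction. In a fit of the 6 vehicle libraries alone, chosen after seeing the data, 7306 genes (44.3%) passed, 3556 higher and 3750 lower. Of these 5034 had also passed under finasteride, 1911 of them in the same direction.

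**Figure D5:**
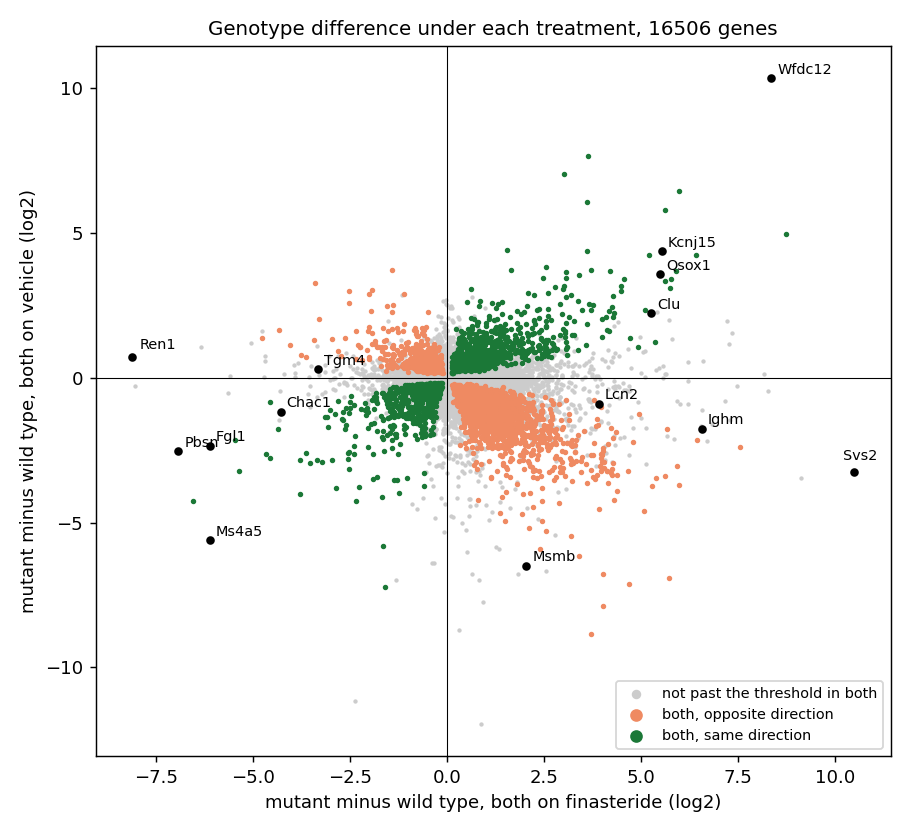
Difference between mutant and wild type under finasteride (horizontal axis, log2) against that on vehicle (vertical axis, log2) for 16506 genes. Green points passed in both comparisons with the same direction (1487 genes) and orange points with the opposite one (2312 genes).

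Several genes were changed by genotype under both treatments. Pbsn averaged 15.69 ± 0.04 in mutant vehicle and 18.23 ± 0.13 in wild type vehicle libraries (SD, n = 3 each), a vehicle difference of -2.54 in limma, and its interaction of -4.39 (SE 0.32, adjusted p = 8.8e-08) shows a larger deficit on finasteride. Fgl1 had a vehicle difference of -2.35 and an interaction of -3.77 (SE 0.35, adjusted p = 9.0e-07). Ms4a5, a membrane gene of a multi-span family, had 3.18, 7.86, 5.89, 6.67 and 7.78 in mutant libraries and 12.92, 11.78, 12.44, 12.38 and 12.38 in wild type libraries on finasteride and a vehicle difference of -5.61, with an interaction that did not pass (-0.49 (SE 1.04, adjusted p = 0.71)). Wfdc12 differed by 10.35 on vehicle, with an interaction of -1.98 (SE 0.69, adjusted p = 0.024), so its excess in mutants was larger there. Kcnj15, a potassium channel, had 9.74, 9.81, 9.76, 9.83 and 9.89 in mutant libraries and 5.03, 4.85, 3.56, 3.45 and 4.47 in wild type libraries on finasteride and a vehicle difference of 4.38, and Gabrp, a GABA receptor subunit, averaged 9.51 ± 0.29 in mutant libraries and 3.76 ± 0.30 in wild type libraries (SD, n = 5 each) with a vehicle difference of 3.098. Clu, Qsox1 and B2m were higher in mutants on vehicle too, by 2.23, 3.58 and 1.12, and Mt1 and Mt2 had vehicle differences of -1.10 and -1.34. Upk2 and Trp63 had vehicle differences of 3.17 and 1.02, and their interactions of -0.16 and 0.182 did not pass (adjusted p = 0.75 and 0.32 in limma).

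The genotype differences of the stress and immune lists depended on the treatment. Of the 41 endoplasmic reticulum genes 5 were lower and 2 higher in mutants on vehicle, and the interaction was lower in 32 and higher in 4. The stress response list mean was 9.66 to 9.75 in mutant finasteride libraries, 10.56 to 11.21 in wild type finasteride libraries, 9.95 to 9.99 in mutant vehicle libraries and 10.13 to 10.19 in wild type vehicle libraries. The mutant finasteride values lay below and the wild type finasteride values above those of both vehicle groups. Hspa5 differed by 0.08 on vehicle, with an interaction of -2.06 (SE 0.32, adjusted p = 8.1e-05), and Atf6 by 0.02, with an interaction of -1.86 (SE 0.09, adjusted p = 1.5e-09). The B and plasma cell list mean was 7.97 to 8.30 in mutant finasteride, 4.63 to 5.06 in wild type finasteride, 4.96 to 5.22 in mutant vehicle and 5.59 to 5.68 in wild type vehicle libraries. Ighm was lower in mutants on vehicle, at -1.76, and its interaction was 8.34 (SE 0.36, adjusted p = 8.9e-10). Cxcl13 had finasteride and vehicle differences of opposite sign, 2.43 and -2.45, and an interaction of 4.88 (SE 0.28, adjusted p = 9.1e-09). Msmb, Sord and Fkbp5 also differed in sign, with vehicle differences of -6.48, 1.28 and -1.26. For the T and NK list the interaction passed as higher in 19 of 23 genes, and on vehicle 9 were higher in mutants and 0 lower.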

How the data were processed

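Poly-A RNA of 16 mouse prostate samples was sequenced on an Illumina HiSeq2000 from TruSeq libraries. The authors deposited 1 table of normalized values, whose unit is log2, inferred from the values since no header or label states the base, and its depth is unknown. The submitters' processing notes name CASAVA 1.8.2, TopHat, Cufflinks, DESeq, DESeq2 and the mm9 build, without saying which made the table. Every column matched a sample by title.

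The members and gene lists were chosen with earlier results of these data known. The values were fitted as deposited with limma 3.58.1 in R 4.3.3 (4 group means over 16 libraries, variance trend, Benjamini-Hochberg over 16506 genes whose mean was at least about 10 before the log). The fit was tested on simulated data. Replicate numbers were given in accession order and pair nothing. Single values were compared with exact permutation tests (scipy 1.17.1). Lists are described by counts. Genes were named by rule: the 15 highest and 15 lowest non-overlapping genes with a mean of about 50 or more before the log, the 5 of each list with the lowest p, the 10 most abundant per group, 10 by interaction and the tissue markers. The text names a subset, and 33 of 125 named genes fall outside it and were chosen after their values were seen. The levels of the mutated gene and of some other genes are not reported here.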

Additional observations from a re-analysis of the deposited data

Results flagged for a closer look

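In a group of 5 libraries a library stood apart where its gap to the nearest other library, divided by the whole range of the group, was above 0.71. This was so in 35 of 250 gene and group pairs tested, and about 1 in 20 would do so for 5 independent normal values. That rate may not hold here, since the mixture-like libraries resemble weighted means of others and the genes are not independent. Some named genes were also chosen after their values were seen, so the 35 pairs cannot be compared with that rate. Mutant finasteride library 2 was the lowest, with a ratio of 0.7417 for Sord, 0.7228 for Srd5a2, 0.7215 for Asns, 0.7675 for Cr2, 0.7244 for Igf1 and 0.7426 for Dusp4. The same library was also the lowest, with a ratio of 0.8846 for Svs2, 0.8114 for Svs5, 0.8944 for Crisp1, 0.8848 for Akr1b7, 0.866 for Nefh and 0.7734 for Snap25. The same library was also the lowest, with a ratio of 0.8058 for Pfkfb3 and 0.7733 for Cdo1. Mutant finasteride library 5 was the highest, with a ratio of 0.843 for Srd5a1. Wild type finasteride library 2 was the lowest, with a ratio of 0.8011 for Mt1, 0.7158 for Gdf15, 0.842 for Rpl4 and 0.8308 for Calr. Wild type finasteride library 1 was the lowest, with a ratio of 0.7626 for Fut9 and 0.7843 for Atf6. Wild type finasteride library 2 was the highest, with a ratio of 0.7606 for Ltf, 0.79996 for H2-Q4, 0.7793 for Cd52, 0.7182 for Itgb4, 0.8298 for Mki67 and 0.743 for Dusp4. The same library was also the highest, with a ratio of 0.7615 for Crisp1 and 0.8491 for Akr1b7. Mutant finasteride library 2 was the highest, with a ratio of 0.7566 for Cd79a and 0.7351 for Aars. Wild type finasteride library 5 was the lowest, with a ratio of 0.715 for Cd3e. Wild type finasteride library 1 was the highest, with a ratio of 0.7343 for Svs4, 0.7567 for Svs5 and 0.7642 for Nefh.

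The genotype difference on finasteride differed from that on vehicle in limma's interaction for 110 of the 125 genes named, 62 with a higher and 48 with a lower difference on finasteride (adjusted p under 0.05 over all 16506 genes). Over all tested genes 9339 (56.6%) did so, 29.4% higher and 27.1% lower. The named genes were chosen partly by their values in these data, so their larger share is not a result about them. The values are the finasteride difference minus the vehicle difference, in log2. Among secretory, androgen and metal-binding genes, a higher difference was found at 3.53 for Defb50, 8.53 for Msmb, 12.82 for Sbp, 3.24 for Fkbp5, 2.93 for Steap4, 0.62 for Srd5a1 and 2.17 for Srd5a2. Among secretory, androgen and metal-binding genes, a lower difference was found at -4.39 for Pbsn, -3.62 for Tgm4, -8.82 for Ren1, -7.42 for Pnliprp1, -5.97 for C1rb, -3.77 for Fgl1 and -2.03 for Agr2. Further values in this set were -1.27 for Tmprss2, -1.17 for Spdef, -3.13 for Sord, -1.92 for Mt1, -1.76 for Mt2, -5.27 for Mt3 and -5.13 for Mcoln3. To these are added -6.16 for Fut9 and -2.51 for Prdx6. The wild type vehicle libraries were split for Ren1, with 7.84, 16.58 and 15.65 in libraries 1, 2 and 3. Among proximal luminal, antiprotease and redox genes, a higher difference was found at 3.03 for Clu, 4.82 for Psca, 2.92 for Ly6a, 6.92 for Ltf, 4.37 for Ppp1r1b, 2.18 for Wfdc6b and 2.37 for Wfdc8. Further values in this set were 1.93 for Qsox1, 3.09 for Gpx3 and 3.62 for Gsta4. Among proximal luminal, antiprotease and redox genes, a lower difference was found at -1.98 for Wfdc12. Among stress and folding genes, a higher difference was found at 2.65 for Cbs, 7.29 for Nupr1 and 2.06 for Hspb8. Among stress and folding genes, a lower difference was found at -2.06 for Hspa5, -2.56 for Herpud1, -2.31 for Hyou1, -1.86 for Atf6, -3.58 for Derl3, -2.94 for Syvn1 and -1.55 for Hsp90b1. Further values in this set were -0.97 for Calr, -0.59 for Canx, -1.17 for Pdia6, -1.82 for Dnajc3, -3.55 for Creld2, -1.58 for Atf4 and -1.57 for Asns. To these are added -3.11 for Chac1, -2.90 for Ddit3, -3.94 for Gdf15, -1.001 for Aars, -1.77 for Gars, -2.73 for Atf3 and -2.14 for Hspa8. The remaining ones were -2.88 for Hsph1, -3.15 for Hspa1a and -0.85 for Rpl4. Among immune and mucosal genes, a higher difference was found at 8.34 for Ighm, 9.92 for Igkc, 8.20 for Igha, 8.58 for Igj, 3.84 for Cd79a, 5.14 for Cr2 and 1.97 for Cd3e. Further values in this set were 2.58 for Cd8a, 1.73 for H2-Aa, 1.41 for B2m, 1.49 for H2-Q4, 4.79 for Ccl8, 4.88 for Cxcl13 and 2.07 for Ccl5. To these are added 4.11 for Ccl28, 1.34 for Cx3cr1, 2.40 for Oas3, 4.81 for Lcn2 and 5.10 for Tff3. Among immune and mucosal genes, a lower difference was found at -2.64 for Mertk. Among epithelial, stromal, growth and neighbouring tissue genes, a higher difference was found at 0.53 for Krt5, 1.26 for Itgb4, 3.315 for Upk1a, 1.19 for Pecam1, 3.11 for Igf1, 0.94 for Mcm5 and 2.35 for Ccnd1. Further values in this set were 0.82 for Sox2, 1.44 for Sox9, 2.61 for Klf5, 2.65 for Gabrp, 1.40 for Etv4, 3.64 for Wnt4 and 13.75 for Svs2. To these are added 8.72 for Svs5, 8.42 for Nefh, 9.01 for Snap25, 5.48 for Pfkfb3, 8.88 for Cdo1, 5.56 for Adipoq and 4.54 for Lep. The remaining ones were 3.77 for Dgat2 and 1.75 for Scd1. Some of these rest on wild type vehicle libraries that were split. In libraries 1, 2 and 3 of that group Svs2 had 19.94, 8.01 and 18.60, Svs5 19.82, 7.97 and 18.52 and Snap25 5.21, 9.48 and 8.99. Among epithelial, stromal, growth and neighbouring tissue genes, a lower difference was found at -1.56 for Krt14, -1.58 for Pik3cb, -3.16 for Nkd1, -0.61 for Krt18, -0.500 for Hoxb13 and -3.94 for Acsl3.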

How the results depend on the processing

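Against 10499 genes that passed (5476 higher, 5023 lower), leaving out the mixture-like libraries gave 6775 (3621 and 3154), and mutant library 2 alone, chosen after seeing the data, gave 6198 (2898 and 3300). Leaving out each finasteride library in turn gave 9768 to 11054 genes, 5101 to 5803 higher and 4638 to 5251 lower. On vehicle, without mixture-like libraries, 1530 passed (650 higher and 880 lower), and leave-one-out gave 3922 to 4492 (1740 to 2090 higher and 2171 to 2440 lower). The interaction gave 4843 (2816 and 2027) without those libraries, and 8344 to 10116 (4463 to 5216 and 3881 to 4900) with each library left out. The causes were not tested, beyond fewer libraries entering each fit. The other alternatives run kept the counts within 1.5 times. The summed level differed by -0.41 to -0.37 log2 and the share of the top 10 genes by -15.8 to -13.2 percentage points with each library left out. Among named genes Sbp ranged between -0.51 and 1.84 with each library left out, negative without wild type finasteride library 1 (-0.51) or 5 (-0.40), and Srd5a1 was -0.12 after quantile normalization. Both reversed direction there. With mutant library 2 alone the direction also reversed, and Crisp1 was -0.079, Akr1b7 -0.90, Nefh -0.10 and Calr 0.14. No paired analysis was possible because the labels carry no replicate numbers and the numbers here only follow accession order. Among the 125 named genes 5 lost their call without the mixture-like libraries and 19 with mutant library 2 alone. Depth is not in the table, so it sets no limit that can be stated.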
